A study of Mus musculus with 35 samples.

Results

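The genes described here are 10 members of the Bcl2 family of apoptosis regulators: *Bcl2*, *Bcl2l1*, *Mcl1*, *Bax*, *Bak1*, *Bcl2l11*, *Bid*, *Bbc3*, *Pmaip1* and *Bad*. They were chosen by symbol, with earlier results of these data known, and all 10 are among the 16932 genes found in each of 3 RNA-seq tables. The tables cover 26 samples of mouse neuroectoderm (NE) cells, which were made from the male embryonic stem cell (ESC) line V6.5 of mixed 129/C57BL/6 background by withdrawing LIF and adding 1 µM retinoic acid (RA). The labels give 72 h of RA for all of them, whereas the methods describe a later collection for the Tet3-CD samples. The study asks which genes depend on the enzymatic activity of TET3, an enzyme that oxidizes methylated cytosine, and which depend on the protein itself. It therefore compares *Tet3*+/+ cells with *Tet3*m/m cells, which carry point mutations in the iron-binding site that abolish catalysis, and with *Tet3*-/- cells, which lack an exon and with it the protein.

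The day 3 experiment holds 3 *Tet3*+/+, 3 *Tet3*m/m and 2 *Tet3*-/- samples, without a vector. They came from separate clones of the same line, and gene targeting is described for the *Tet3*m/m and *Tet3*-/- clones only. In the Dnmt1 experiment, cells of each genotype were transfected with myc-tagged Dnmt1, the maintenance DNA methyltransferase, or with the empty vector, and selected with blasticidin, with 2 samples for each genotype and vector. In the Tet3-CD experiment, they received the HA-tagged wild-type catalytic domain of TET3 or an empty vector, with 1 sample for each genotype and vector. All groups share the RA treatment, and the sources used here do not say whether the samples of a Dnmt1 group are separate clones or cultures, so p-values in that experiment measure the spread between these samples, which may be technical. A clone that was grown from a single targeted cell can differ from its parent line for reasons other than the targeted gene, and genotype and clone cannot be told apart in the transfection experiments.

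The Bcl2 family decides whether the outer membrane of mitochondria stays intact. Survival proteins (BCL2, BCL-XL from *Bcl2l1*, and MCL1) hold back the pore formers BAX and BAK, and BH3-only proteins (BIM from *Bcl2l11*, BID, PUMA from *Bbc3*, NOXA from *Pmaip1*, and BAD) bind the survival proteins or the pore formers and tip the balance towards death. Once BAX and BAK open the membrane, cytochrome c leaves the mitochondria and starts the caspase cascade. Pluripotent cells and early neural progenitors are known to be primed for this route, and much of the family's control lies in protein turnover and modification, which mRNA levels do not show.

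Recovered reads per sample ranged from 31155842 to 50845950, and in the Tet3-CD experiment, where 1 sample stands for a group, the lowest member value rested on 200 reads. *Tet3* itself was at 4576 to 5020 normalized counts in day 3 *Tet3*+/+ samples, 1945 to 2666 in *Tet3*m/m and 1796 to 2329 in *Tet3*-/-. In the empty-vector samples of the Dnmt1 experiment, it was at 2957 and 3075, 964 and 1125, and 2520 and 2571 in the same order of genotypes, so the *Tet3*-/- samples were only 0.24 lower on the log2 scale (SE 0.077, limma adjusted p 0.0114). The gene-level values count all exons and do not resolve the deleted exon or the point mutations. *Dnmt1* rose with the Dnmt1 vector by 0.64, 0.90 and 1.06 (log2) in *Tet3*+/+, *Tet3*m/m and *Tet3*-/- (limma adjusted p 5.66e-06, 7.46e-09 and 1.36e-09). All 9 neural progenitor markers examined were present in every table, but so were markers of other cell types, and their summed levels moved with genotype, most of all in the Dnmt1 experiment. There, 6 pluripotency markers (*Pou5f1*, *Nanog* and others) summed to 17725 to 17825 normalized counts in *Tet3*+/+, 49528 to 50609 in *Tet3*m/m and 2999 to 3143 in *Tet3*-/- with the empty vector. In the same samples, 8 endoderm markers summed to 17584 to 18035, 44859 to 46867 and 9705 to 10154, and 5 fibroblast markers to 15976 to 17584, 3697 to 3916 and 29028 to 29205. On day 3, the pluripotency sums overlapped, at 3843 to 6158, 4416 to 12860 and 3220 to 6021, as did the endoderm sums of *Tet3*+/+ and *Tet3*-/- (8363 to 9056 and 7521 to 10054), while those of *Tet3*m/m (9550 to 13106) lay above every *Tet3*+/+ sample. The fibroblast sums were 14443 to 21746 in *Tet3*+/+, 9927 to 17000 in *Tet3*m/m and 29921 to 36076 in *Tet3*-/-.

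Levels of the members were compared as normalized counts per kilobase of exon, with exon lengths from the GENCODE vM21 annotation. In day 3 *Tet3*+/+ cells, *Mcl1* was the most abundant, at 5443 ± 356 per kb (mean ± SD, n = 3), followed by *Bax* at 3663 ± 181 and *Bbc3* at 1577 ± 59.1. *Bcl2l1* (1241 ± 81.4) and *Bak1* (1230 ± 60.0) came next and did not differ beyond their spread. *Pmaip1* (737 ± 55.1), *Bcl2l11* (436 ± 20.5), *Bid* (292 ± 14.5) and *Bad* (226 ± 9.54) followed in that order, with no overlap between neighbours. *Bcl2*, the founding member of the family, was the lowest, at 42.5 ± 2.92 per kb. The survival protein with the most mRNA in these cells was thus MCL1, a short-lived protein, and *Bcl2* itself had the lowest level of the 10 members. The same gene was lowest in *Tet3*+/+ cells with the empty vector of both other experiments, at 22.8 ± 0.188 per kb in the Dnmt1 experiment (n = 2) and 43.5 in the Tet3-CD sample. *Mcl1* and *Bax* took the first places in all 3 experiments, although in the Tet3-CD sample *Bax*, at 3316 per kb, was level with *Mcl1*, at 3274.

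Because TET enzymes act at CpG sites, the promoter windows of the members were examined for CpG. The RefSeq promoter table (GRCm38.p6, 250 bases before to 50 after each start) gives 15 windows for 9 of the 10 members, *Pmaip1* being without one. They held 1 to 44 CpG with a median of 27, against a median of 7 (quartiles 3 and 20) over all 32851 windows of the table. The *Bcl2* window, with 44, lay above 97.8% of all windows, and those of *Mcl1* and *Bid*, with 33 and 22, above 91.4% and 76.9%. The 3 windows of *Bcl2l1* held 1, 14 and 22. A GC box (GGGCGG, either strand) was present in 10 of the 15 windows, against 35.7% of all windows, a CCAAT box (CCAAT, either strand) in 4, against 37.4%, and a TATA box (TATAAA, either strand) in 0, against 13.6%. The 250 bases before the start are shown for *Mcl1*, the member with the most reads and a raised level in *Tet3*m/m, and for *Bid*, the member with the smallest differences between groups, with each CpG in capitals. The *Mcl1* stretch (chr3:95658471-95658720, plus strand) holds 26 CpG and the *Bid* stretch (chr6:120916825-120917074, minus strand) 18. Methylation at these sites was not analysed here, and the sources used here disagree on the assembly to which the reads were aligned, so the deposited tables were joined to this one by gene symbol only.
Mcl1: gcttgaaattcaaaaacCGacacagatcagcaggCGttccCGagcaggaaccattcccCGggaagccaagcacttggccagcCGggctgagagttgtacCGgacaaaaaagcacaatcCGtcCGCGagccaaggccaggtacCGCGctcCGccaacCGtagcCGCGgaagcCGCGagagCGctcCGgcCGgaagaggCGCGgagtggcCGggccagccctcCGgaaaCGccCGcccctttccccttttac
Bid: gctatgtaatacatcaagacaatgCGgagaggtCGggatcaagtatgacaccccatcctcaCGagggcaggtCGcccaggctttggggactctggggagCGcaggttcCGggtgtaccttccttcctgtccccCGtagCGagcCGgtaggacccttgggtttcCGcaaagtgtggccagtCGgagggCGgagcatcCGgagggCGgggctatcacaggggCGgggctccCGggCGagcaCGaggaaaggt

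**Figure D1:**
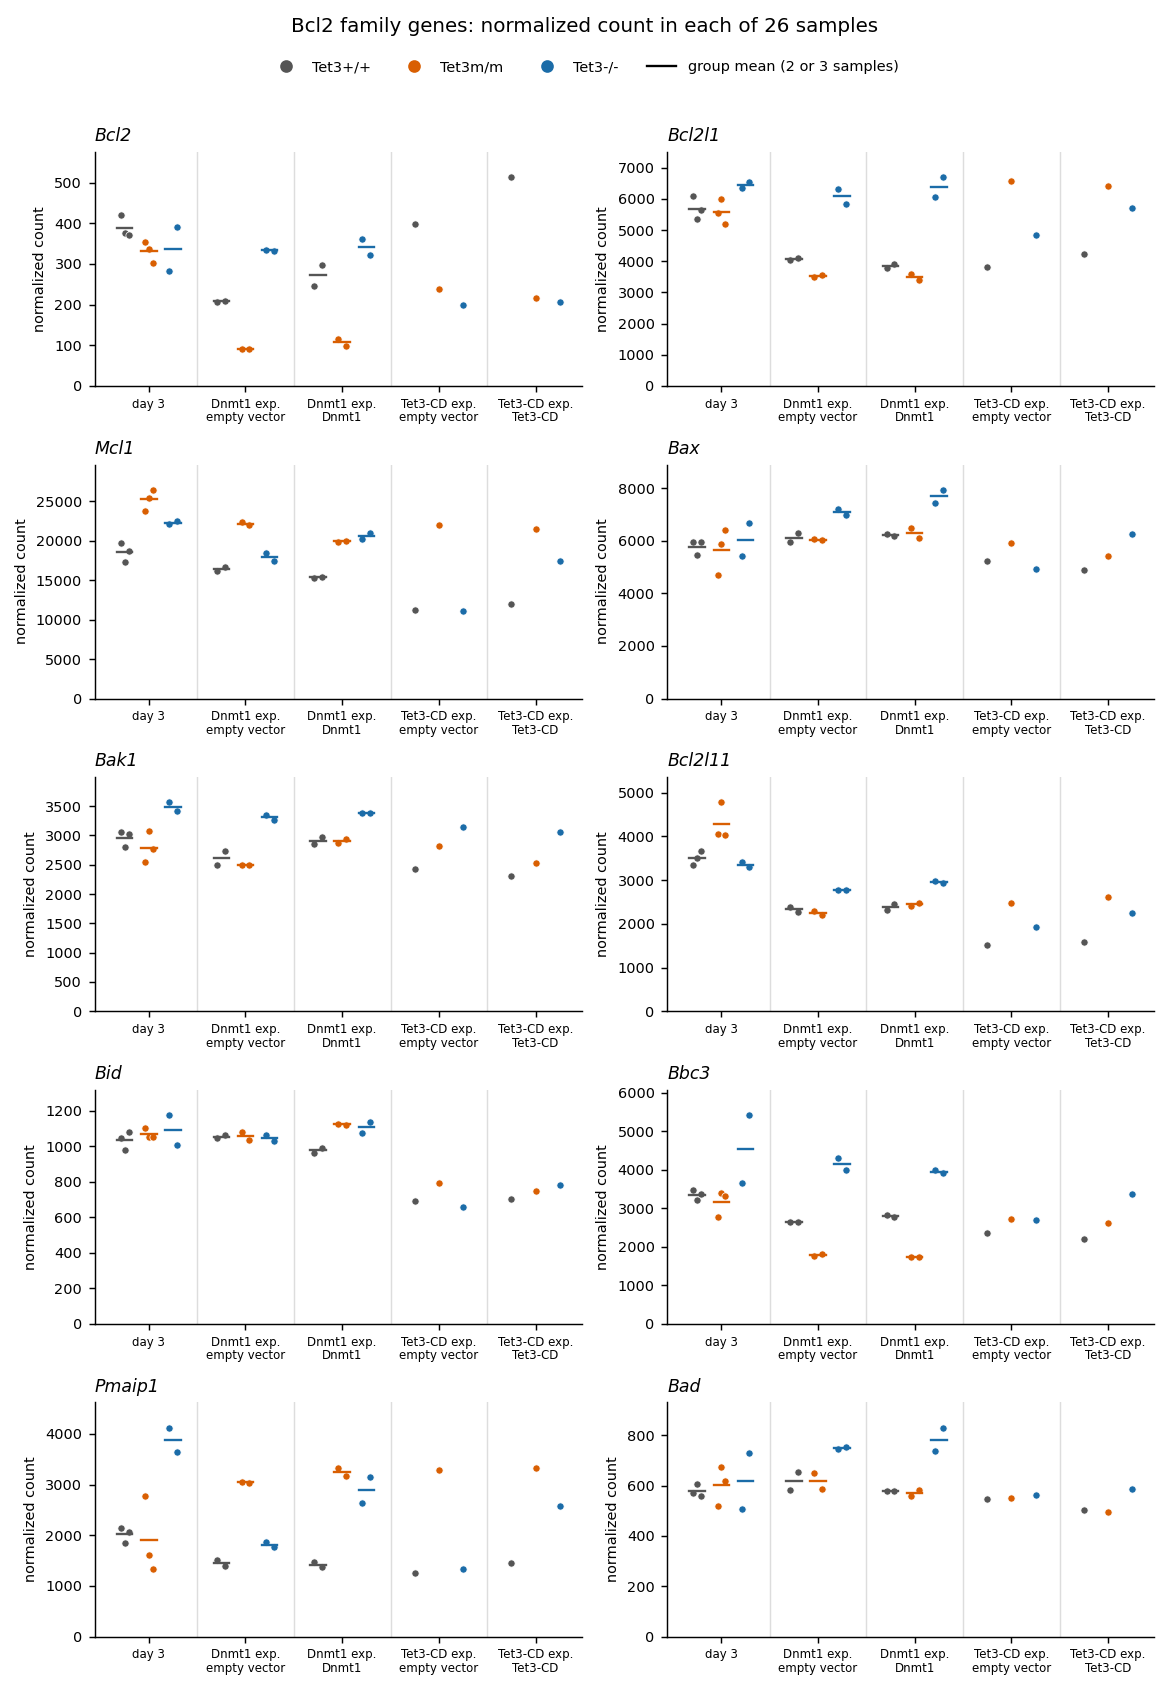
Normalized count (y axis, linear, from 0) of each of the 10 Bcl2 family genes in every sample, with the 3 experiments and their vectors along the x axis and genotype by colour. Points are samples and short lines are means of groups of 2 or 3. *Mcl1* in *Tet3*m/m lay above *Tet3*+/+ in every experiment and *Bid* stayed between 965 and 1177 in the day 3 and Dnmt1 experiments, while *Bcl2* in *Tet3*m/m was at 90.5 and 91.2 with the empty vector of the Dnmt1 experiment.

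On day 3, the family was first compared between the catalytic mutant and the parent genotype. Of the 10 members, *Mcl1* alone passed an adjusted p of 0.05 in limma, a share near the 13.9% of all 17915 genes tested that passed. The normalized counts of *Mcl1* were 19754, 17333 and 18725 in the *Tet3*+/+ samples, against 23805, 25462 and 26507 in the *Tet3*m/m samples. The groups did not overlap, and *Mcl1* rose by 0.44 on the log2 scale (SE 0.087, 95% interval 0.25 to 0.63, limma adjusted p 0.00831), or 1.36-fold. The marker lists differed in the same comparison: 6 of 9 neural progenitor markers were called, all lower (median -1.24), as was 1 of 8 endoderm markers, higher. The trophoblast sums (3110 to 3503 in *Tet3*+/+, 2387 to 2630 in *Tet3*m/m) and the mesoderm sums (538 to 645 and 783 to 896) did not overlap, and the part of these markers in the rise of *Mcl1* was not tested. In bulk samples, a change in the share of cells that express a gene cannot be told apart from a change in RNA per cell. *Bcl2l11*, which encodes the BH3-only protein BIM, was at 3336, 3512 and 3665 in *Tet3*+/+ and 4063, 4779 and 4022 in *Tet3*m/m. Its groups did not overlap either, but its difference of 0.29 (SE 0.094) missed the threshold, with a limma adjusted p of 0.0678 against 0.042 in DESeq2. *Bcl2* was at 420, 376 and 372 in *Tet3*+/+ and 355, 336 and 302 in *Tet3*m/m, also without overlap, a difference of -0.23 (95% interval -0.60 to 0.14, limma adjusted p 0.398). The remaining members differed by -0.15 to 0.06, and the median over the 10 was -0.04, against 0.00 over all genes.

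*Pmaip1*, whose product NOXA neutralizes MCL1, separated the *Tet3*m/m samples from each other. It was at 2136, 1846 and 2060 in *Tet3*+/+, and at 2766, 1602 and 1332 in *Tet3*m/m replicates 1, 2 and 3. Replicate 1 lay above every *Tet3*+/+ sample and the other *Tet3*m/m samples below every one, so the mean difference of -0.15 (limma adjusted p 0.691) describes none of the *Tet3*m/m samples. Without replicate 1 the difference was -0.46 (limma adjusted p 0.0308), and without replicate 3 it was 0.07. This replicate also had the lowest *Bax* and *Bak1* of the *Tet3*m/m samples, at 4690 against 5869 and 6408, and at 2548 against 3069 and 2761.

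In *Tet3*-/- on day 3, no member passed an adjusted p of 0.05 against *Tet3*+/+ in limma, where 0.681% of all genes passed. With an unadjusted p under 0.05 there were 4 members, where 20.1% of all genes had one. By adjusted p, edgeR called 0 members and 0.502% of all genes, and DESeq2 called 1 member and 7.84% of all genes. That gene was *Pmaip1*, at 4124 and 3648 in *Tet3*-/-, both above all *Tet3*+/+ samples (1846 to 2136). Its difference of 0.95 (SE 0.24, 95% interval 0.42 to 1.48), or 1.93-fold, had an adjusted p of 0.0741 in limma, 0.0758 in edgeR and 0.00497 in DESeq2. It passed in limma when only these genotypes were in the fit (adjusted p 0.0138), a fit that called 5.45% of all genes. It also passed in limma when *Tet3*m/m replicate 1 or 3 was left out (adjusted p 0.00919 and 0.0279), the highest and the lowest *Tet3*m/m samples for this gene. *Bbc3*, which encodes the BH3-only protein PUMA, was at 3214 to 3461 in *Tet3*+/+ and at 3649 and 5421 in *Tet3*-/-. Both lay above *Tet3*+/+ but far apart from each other, and the difference of 0.41 (SE 0.16) had a limma adjusted p of 0.18. *Mcl1*, at 22096 and 22560, lay between the other genotypes without overlap, 0.27 above *Tet3*+/+ (SE 0.098, limma adjusted p 0.167). The pore former *Bak1*, at 3565 and 3418, was likewise above *Tet3*+/+ in both samples (2794 to 3058; difference 0.24, limma adjusted p 0.239).

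The mutants were also compared with each other. *Pmaip1* was 1.10 (log2) higher in *Tet3*-/- than in *Tet3*m/m (SE 0.24, limma adjusted p 0.0155), or 2.15-fold, and was the only member to pass, where 12.2% of all genes passed and 9.73% did so with a fold change above 1.5. This call was lost without *Tet3*m/m replicate 2 (adjusted p 0.0566), *Tet3*-/- replicate 1 (0.0898) or *Tet3*-/- replicate 2 (0.0501), while the difference stayed between 1.01 and 1.19 in these fits. *Bcl2l11* was 0.35 lower in *Tet3*-/- (SE 0.10, limma adjusted p 0.0518), at 3402 and 3288 against 4022 to 4779, and edgeR and DESeq2 put it past the threshold at 0.0485 and 0.0238. *Bcl2l11* also passed in limma without *Tet3*m/m replicate 1 (0.032). DESeq2, which called 17.8% of all genes here, also called *Bbc3* (0.52 higher, adjusted p 0.0221; limma 0.0117 without *Tet3*-/- replicate 1) and *Bak1* (0.32 higher, 0.0485). The fibroblast marker sums given above were higher in both *Tet3*-/- samples than in any other day 3 sample, although only *Col1a1* (2.06) of the 5 fibroblast markers was called against *Tet3*m/m. Of the 8 endoderm markers 6 were called, all lower in *Tet3*-/- (median -1.46), with *Ttr* at -3.13 and *Sox7* at -2.38. The part of either list in these differences was not tested.

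**Figure D2:**
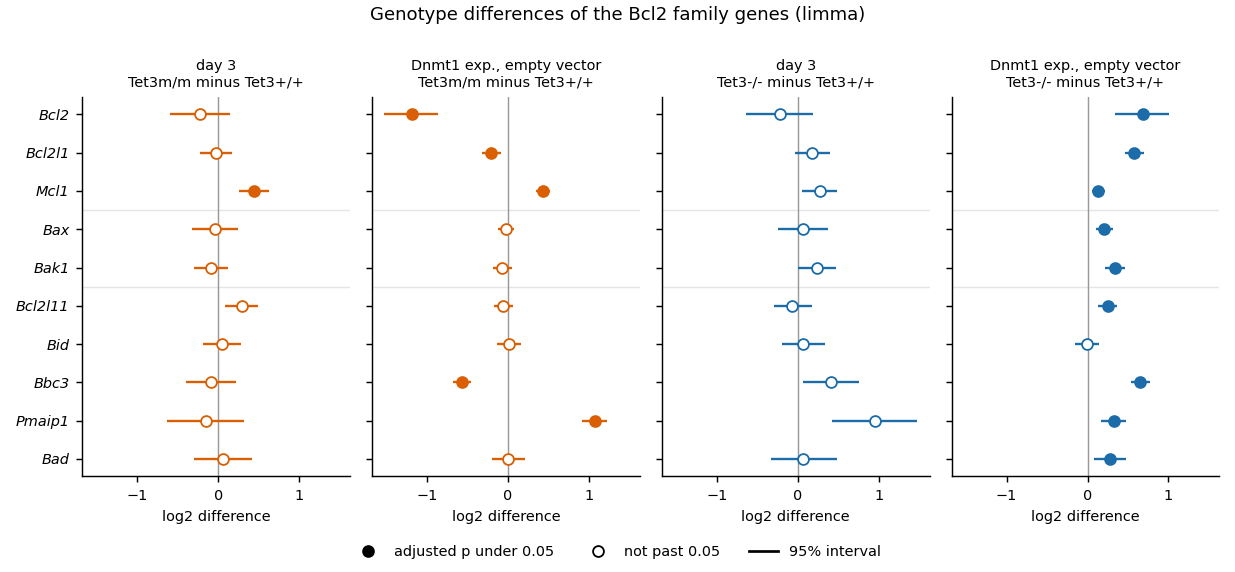
Log2 difference (x axis) with its 95% interval (lines) for each of the 10 genes (y axis, grouped as survival proteins, pore formers and BH3-only proteins), on day 3 and with the empty vector of the Dnmt1 experiment. Filled points passed an adjusted p of 0.05 in limma. *Mcl1* in *Tet3*m/m was called in both experiments, at 0.44 and 0.43. In *Tet3*-/-, 9 of 10 genes were called higher with the empty vector, where 26.7% of all genes were. On day 3, 0 of 10 were called in *Tet3*-/-, where 0.681% of all genes were.

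With the empty vector of the Dnmt1 experiment, 5 of the 10 members passed in *Tet3*m/m against *Tet3*+/+, where 45.6% of all 18055 genes tested passed, so the count was close to that of genes at large. With a fold change above 1.5 added, 2 members passed (*Bcl2* and *Pmaip1*), against 21.2% of all genes. The survival genes moved in opposite directions. *Bcl2* fell 2.28-fold, from 207 and 210 normalized counts to 90.5 and 91.2 (log2 -1.19, SE 0.16, limma adjusted p 2.59e-06). These values rest on 210 and 181 reads in *Tet3*+/+ and 99 and 70 in *Tet3*m/m, for which counting alone gives an SD of 15 and 10 normalized counts, so these samples lay closer together than their counting error. *Bcl2l1* fell from 4037 and 4095 to 3502 and 3548 (-0.21, SE 0.057, limma adjusted p 0.00484). *Mcl1* rose from 16163 and 16691 to 22341 and 22043 (0.43, SE 0.041, limma adjusted p 1.35e-08). This *Mcl1* value stands beside the 0.44 of day 3, in other samples and another table. Within each group, the 2 samples of a gene lay close together and no groups overlapped.

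The BH3-only genes also parted in *Tet3*m/m with the empty vector. *Pmaip1* rose 2.10-fold, from 1506 and 1390 to 3045 and 3037 (log2 1.07, SE 0.073, limma adjusted p 8.73e-11). *Bbc3* fell from 2641 and 2633 to 1751 and 1801 (-0.57, SE 0.054, limma adjusted p 1.63e-08), or 1.48-fold. *Bcl2l11*, which lay above *Tet3*+/+ in all *Tet3*m/m samples on day 3, was at 2389 and 2280 in *Tet3*+/+ and 2294 and 2197 in *Tet3*m/m here (-0.06, 95% interval -0.17 to 0.06). *Bid* and *Bad* differed by 0.01 and 0.00, and the pore formers *Bax* and *Bak1* by -0.02 and -0.07, with 95% intervals from -0.12 to 0.08 and from -0.18 to 0.05. The median over the 10 members was -0.04, against 0.01 over all genes. The pluripotency and endoderm marker sums given above were higher and the fibroblast sums lower in these *Tet3*m/m samples than in *Tet3*+/+, and their part in these differences was not tested.

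Among empty-vector samples of *Tet3*-/-, 9 of the 10 members passed against *Tet3*+/+, where 53.2% of all genes passed, and all 9 were higher, where 26.7% of all genes passed as higher. Only *Bid* did not pass. The rise was small for most: *Bcl2* and *Bbc3* exceeded 1.5-fold, against 24.9% of all genes that passed with such a fold change. *Bcl2* rose from 207 and 210 to 335 and 332 (log2 0.68, SE 0.16, limma adjusted p 0.00134), and *Bcl2l1* from 4037 and 4095 to 6333 and 5835 (0.58, SE 0.057, limma adjusted p 2.37e-08). Among the BH3-only genes, *Bbc3* rose from 2641 and 2633 to 4305 and 3997 (0.65, SE 0.054, limma adjusted p 2.11e-09). *Pmaip1* was at 1858 and 1772 (0.33, SE 0.073, limma adjusted p 0.000791), well below the 3648 and 4124 of day 3 *Tet3*-/- cells, although the tables were normalized separately. Genes on both sides of the balance thus rose together. The pore formers *Bak1* (0.34) and *Bax* (0.21) and the BH3-only genes *Bcl2l11* (0.25) and *Bad* (0.28) rose less, and *Mcl1* least, by 0.13 (SE 0.041, limma adjusted p 0.0103). *Mcl1* was no longer called without 1 *Tet3*+/+ sample or *Tet3*-/- replicate 1 (adjusted p 0.104 and 0.154), nor was *Bad* without the same samples or *Tet3*-/- replicate 2 (0.182, 0.0636 and 0.0744). The median over the members was 0.30, against 0.00 over all genes. In these *Tet3*-/- samples the pluripotency sums were lower and the fibroblast sums higher than in *Tet3*+/+. Of the 5 fibroblast markers, *Col1a1* (1.28) and *Pdgfrb* (0.69) were called higher and *Thy1* (-1.19) lower, with a list median of 0.11, and the part of these markers was not tested.

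The mutants therefore lay on opposite sides of *Tet3*+/+ for several members, and were compared directly. With the empty vector, 9 of 10 members passed between *Tet3*-/- and *Tet3*m/m, where 65.6% of all genes passed, and 4 did so with a fold change above 1.5, against 39.6% of all genes. Higher in *Tet3*-/- were 7 members, against 32.4% of all genes. *Bcl2* was 3.65-fold higher (log2 1.87, SE 0.16), *Bbc3* 2.34-fold (1.22, SE 0.054) and *Bcl2l1* 1.72-fold (0.79, SE 0.057), with limma adjusted p of 1.47e-09, 1.96e-14 and 7.03e-11. The smallest differences of the 7 were those of *Bad* (0.28, limma adjusted p 0.0157) and *Bax* (0.23, 0.000258), and *Bad* was no longer called without *Tet3*m/m replicate 2 or either *Tet3*-/- sample (0.143, 0.0538 and 0.0637). *Pmaip1* and *Mcl1*, the BH3-only gene and the survival gene whose products bind each other, were the members that were lower, by 0.74 (SE 0.073) and 0.30 (SE 0.041) on the log2 scale, with limma adjusted p of 1.21e-08 and 1.26e-06. For *Pmaip1*, this is the reverse of the day 3 order, in which *Tet3*-/- was the higher; the difference between the experiments was not tested, since their tables were normalized separately.

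*Bid* stood out for its even level. Its normalized counts ran from 980 to 1177 on day 3, and in the Dnmt1 and Tet3-CD experiments from 965 to 1139 and from 660 to 791, so that the highest sample was 1.2 times the lowest in each. Over the 11 comparisons tested, its difference ran from -0.11 to 0.20, the widest bounds of the 95% intervals were -0.26 and 0.41, and the smallest unadjusted p was 0.0679. *Bad* and *Bax* in the Tet3-CD experiment (1.18 and 1.28 times) and *Bcl2l1* on day 3 (1.26 times) were the closest to it in range within an experiment, but each varied more in the other experiments. The activity of BID is known to be set by cleavage of the protein by caspase-8. *Bid* lies on chromosome 6, whose genes had a median difference of -0.22 in *Tet3*m/m on day 3 and -0.26 with the empty vector, but the 50 tested genes nearest to it had medians of 0.09 and 0.07. For *Mcl1*, the 50 nearest genes had medians of 0.15 and 0.06 in the same comparisons, against 0.44 and 0.43 for the gene, and for *Bcl2* with the empty vector the median was 0.03 against -1.19. Near *Pmaip1* and *Bbc3* it was 0.16 and -0.19 with the empty vector, against 1.07 and -0.57. Of the nearest genes, 70% shared the sign of *Mcl1* on day 3. With the empty vector, 72%, 70% and 46% shared that of *Pmaip1*, *Bbc3* and *Bcl2*. The part of position in these differences was not tested.

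The study added Dnmt1 to see whether genes raised in the mutant cells would return towards their normal level. In *Tet3*+/+, no member passed in limma, where 5.59% of all genes passed. An unadjusted p under 0.05 was found for 3 members and for 19.9% of all genes. By adjusted p, edgeR and DESeq2 each called 0 members, where they called 6.39% and 6.99% of all genes. In *Tet3*m/m, 2 members passed (*Mcl1* lower, *Bak1* higher), where 10.2% of all genes passed. *Mcl1* went from 22341 and 22043 with the empty vector to 19915 and 20022 with Dnmt1, a fall of 1.11-fold (log2 -0.15, SE 0.041, limma adjusted p 0.0193), and *Bak1* from 2495 and 2499 to 2874 and 2931 (0.22, SE 0.055, limma adjusted p 0.014). Both calls were lost when any of the 4 *Tet3*m/m samples was left out, with adjusted p of 0.0545 to 0.132. *Bak1* with Dnmt1 was also higher in both *Tet3*+/+ samples, at 2854 and 2964 against 2498 and 2740 (0.15, limma adjusted p 0.112). Markers moved with Dnmt1 in *Tet3*m/m too: fibroblast sums went from 3697 to 3916 up to 5129 to 5166 (3 of 5 markers called, all higher, *Dcn* by 2.03), and pluripotency sums from 49528 to 50609 up to 54427 to 56235 (2 of 6 called, both higher). Of the 9 neural progenitor markers 4 were called, all higher (*Zic1* by 1.86), and the part of these markers in the changes of *Mcl1* and *Bak1* was not tested.

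Adding Dnmt1 to *Tet3*-/- cells put 2 members past the threshold, where 13.4% of all genes passed, and *Pmaip1* did so with a fold change above 1.5, against 3.53% of all genes. *Pmaip1* rose from 1858 and 1772 with the empty vector to 2631 and 3145 with Dnmt1 (log2 0.66, SE 0.073, limma adjusted p 4.04e-06), or 1.59-fold. *Mcl1* rose from 18497 and 17489 to 20211 and 21040 (0.20, SE 0.041, limma adjusted p 0.00237), a call that was lost without the second empty-vector sample (adjusted p 0.0698). The pair rose in *Tet3*-/- but not in *Tet3*+/+, where *Pmaip1* went from 1506 and 1390 to 1462 and 1365 (-0.04, 95% interval -0.19 to 0.12) and *Mcl1* from 16163 and 16691 to 15331 and 15393 (-0.10, limma adjusted p 0.183). The difference between the genotypes in the effect of Dnmt1 was tested as an interaction. It passed for these 2 members, at 0.70 for *Pmaip1* (SE 0.10, limma adjusted p 0.000164) and 0.29 for *Mcl1* (SE 0.058, limma adjusted p 0.00236), where 9.71% of all genes passed. For the other 8 members it lay between -0.35 and 0.19 and did not pass. Between *Tet3*m/m and *Tet3*+/+, no member passed in limma, edgeR or DESeq2, where 1.31%, 1.52% and 1.85% of all genes passed. An unadjusted p under 0.05 was found for 0 members and for 10.9% of all genes. *Dnmt1* itself rose more in *Tet3*-/- than in *Tet3*+/+ (interaction 0.42, limma adjusted p 0.00502). The pluripotency markers moved as well: all 6 rose with Dnmt1 in *Tet3*-/-, from sums of 2999 to 3143 to sums of 4665 to 4880, and 4 of the 6 passed the same interaction. The part of either in the rise of *Pmaip1* and *Mcl1* was not tested.

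**Figure D3:**
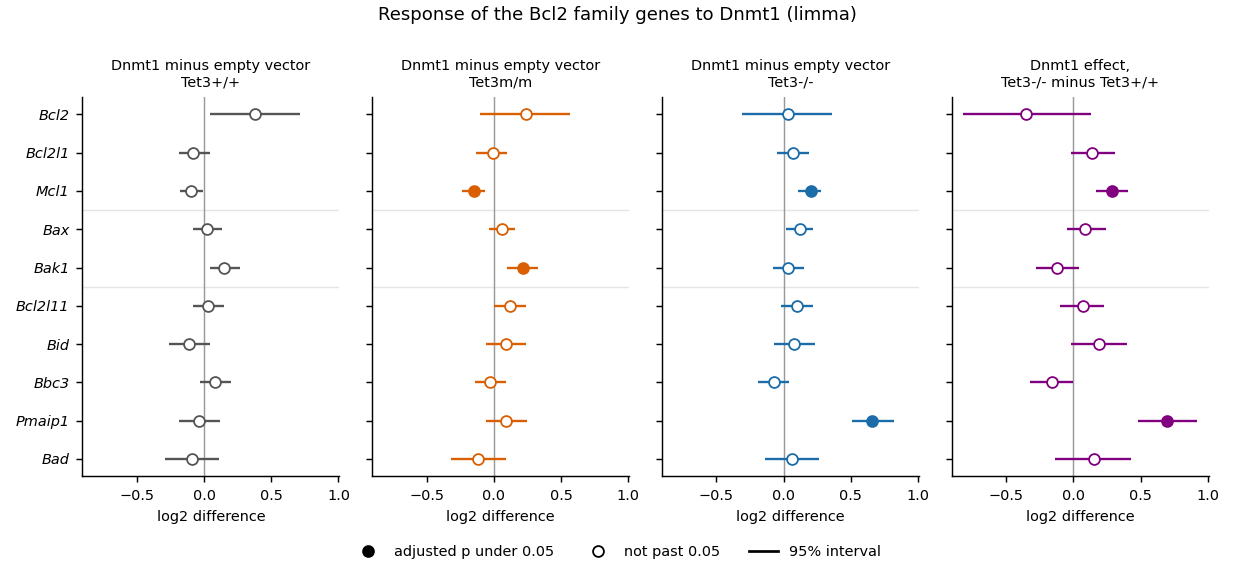
Log2 difference between Dnmt1 and the empty vector (x axis) with its 95% interval for each gene (y axis) in the 3 genotypes, and in the last panel the difference between *Tet3*-/- and *Tet3*+/+ in this effect. Filled points passed an adjusted p of 0.05 in limma. *Pmaip1* in *Tet3*-/- lay at 0.66 with an interval of 0.51 to 0.82, and in *Tet3*+/+ at -0.04.

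In the Tet3-CD experiment, the study put back the catalytic domain of TET3 to check that expression changes in the mutants came from losing TET3. With 1 sample for each genotype and vector there is no test, and the exact 95% Clopper-Pearson intervals given cover counting error only, as reads without molecular identifiers are not independent molecules. In *Tet3*+/+ and *Tet3*m/m, 0 of 10 members moved past 1.5-fold, where 13.4% and 10.1% of 17481 genes did. Their log2 ratios of Tet3-CD to empty vector ran from -0.12 to 0.37 and from -0.16 to 0.07. The *Tet3*m/m values stayed close together although the normalized count of *Tet3* was 2.83-fold higher with Tet3-CD. For *Tet3*-/-, 2 members were past 1.5-fold, where 21.5% of genes were, and both were higher. *Pmaip1* was at 1334 in the empty-vector sample and 2570 in the Tet3-CD sample (log2 ratio 0.95, counting interval 0.85 to 1.04), and *Mcl1* at 11073 and 17487 (0.66, 0.63 to 0.69). These are the same 2 members that Dnmt1 raised in *Tet3*-/-. *Dnmt1* itself was at 20150 in the empty-vector sample and 15451 in the Tet3-CD sample (log2 ratio -0.38, counting interval -0.41 to -0.35). A link between the responses to Dnmt1 and Tet3-CD was not tested. *Bax* (0.34), *Bbc3* (0.31) and *Bid* (0.25) were higher by less than 1.5-fold, and *Tet3* was 1.33-fold higher. Between these samples the pluripotency marker sum went from 7294 to 4546 on adding Tet3-CD, the endoderm sum from 15260 to 9936, the trophoblast sum from 7784 to 4679 and the neural sum from 9001 to 14885. Of the 9 neural markers, however, 1 was past 1.5-fold higher and 5 past 1.5-fold lower, with a median log2 ratio of -0.77. The part of these markers in the ratios of the members was not tested.

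Empty-vector *Tet3*m/m cells of this experiment again held more *Mcl1* and *Pmaip1* and less *Bcl2* than *Tet3*+/+. Past 1.5-fold were 5 of 10 members, where 36.3% of all genes were. *Pmaip1* was at 1254 in *Tet3*+/+ and 3294 in *Tet3*m/m (2.63-fold), *Mcl1* at 11189 and 21987 (1.96-fold) and *Bcl2* at 398 and 238 (1.67-fold lower). *Bcl2l1* and *Bcl2l11* were 1.73-fold and 1.63-fold higher, unlike in the Dnmt1 experiment, where their log2 differences were -0.21 and -0.06. Of the *Tet3*-/- values, only *Bcl2* was past 1.5-fold, where 27.1% of all genes were. It was at 200 against 398 in *Tet3*+/+ (log2 ratio -0.99, counting interval -1.25 to -0.74), the opposite of the rise of 0.68 in the Dnmt1 experiment. *Mcl1* and *Pmaip1* in *Tet3*-/-, at 11073 and 1334, were 0.02 lower and 0.09 higher than in *Tet3*+/+. Across the 3 experiments, then, *Mcl1* was higher in *Tet3*m/m than in *Tet3*+/+ each time (0.44, 0.43 and 0.97), *Bcl2* was lower each time (-0.23, -1.19 and -0.74, the first not past the threshold), and *Pmaip1* was higher in both transfection experiments (1.07 and 1.39) but not on day 3 (-0.15). The endoderm marker sum in this experiment was 53976 in *Tet3*+/+ and 13238 and 15260 in *Tet3*m/m and *Tet3*-/-, so that *Tet3*+/+ was above *Tet3*m/m, the reverse of their order in the Dnmt1 experiment. The pluripotency sum was 5540, 11303 and 7294 in the same order, and in each mutant 5 of its 6 markers were past 1.5-fold higher and 1 lower, with medians of 2.24 and 1.25. With the empty vector of the Dnmt1 experiment, most of these markers were likewise raised in *Tet3*m/m (5 called higher and 1 lower, median 1.39), but on day 3 0 of the 6 passed in limma (median 0.66). Of the 9 neural markers, 2 were past 1.5-fold higher and 6 lower in *Tet3*m/m, and the trophoblast sum was 1856 in *Tet3*+/+ and 7784 in *Tet3*-/- (3 of 4 markers past 1.5-fold higher, 1 lower). The part of these markers in the differences of the members was not tested.

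**Figure D4:**
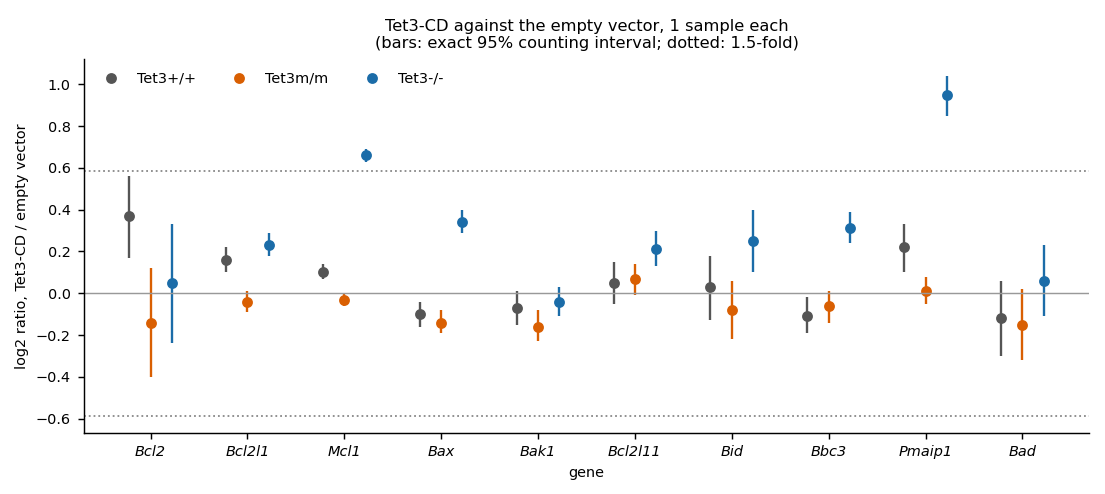
Log2 ratio of the normalized count with Tet3-CD to that with the empty vector (y axis) for each gene (x axis) and genotype (colour), from 1 sample each. Bars are exact 95% intervals for counting error only, and dotted lines mark 1.5-fold. *Pmaip1* (0.95) and *Mcl1* (0.66) in *Tet3*-/- were the values past the upper line.

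The ratio of *Bax* to *Bcl2* within a sample is often used as a summary of the balance. On day 3 its log2 values were 3.82, 3.85 and 4.0 for *Tet3*+/+, 3.72, 4.12 and 4.41 for *Tet3*m/m, and 4.26 and 4.09 for *Tet3*-/-, so that the catalytic mutant overlapped *Tet3*+/+ and the null cells lay just above it. In the empty-vector samples of the Dnmt1 experiment it was 4.84 and 4.90, 6.06 and 6.04, and 4.42 and 4.39. *Tet3*m/m was thus the highest and *Tet3*-/- the lowest, and the order was the same with Dnmt1 except that the *Tet3*+/+ and *Tet3*-/- samples overlapped (4.37 and 4.66 against 4.37 and 4.63). The denominator carried most of this, since *Bax* ranged 1.33 times between the lowest and the highest sample of that experiment and *Bcl2* 3.99 times. Empty-vector cells of the Tet3-CD experiment, with 1 sample per genotype, had 3.71 (*Tet3*+/+), 4.64 (catalytic mutant) and 4.62 (null). Null cells were thus above *Tet3*+/+ there, whereas they lay below it with the empty vector of the Dnmt1 experiment. The ratio of *Pmaip1* to *Mcl1* was -2.42 and -2.63 in day 3 *Tet3*-/-, above all other day 3 samples (-4.31 to -3.11). With the empty vector of the Dnmt1 experiment it was highest for the catalytic mutant (-2.88 and -2.86), with null cells at -3.32 and -3.30 and *Tet3*+/+ at -3.42 and -3.59. In the Tet3-CD experiment it was -2.74 in *Tet3*m/m, -3.05 in *Tet3*-/- and -3.16 in *Tet3*+/+ with the empty vector.

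The members' patterns were set beside each other over the 26 samples, with each experiment centred on its own mean. These correlations are descriptions, since samples of a group share their genotype and vector, and experiments share their normalization. Of the 45 pairs, 37 had a Pearson r above 0. The share of such pairs among all genes was not counted, so this number does not set the family apart. The most alike were *Bcl2l1* and *Bbc3* (r = 0.83), a survival gene and a BH3-only gene, followed by *Bax* and *Bad* (0.76) and *Bak1* and *Bbc3* (0.73). The least alike were *Bcl2* and *Pmaip1* (-0.44) and *Bcl2* and *Mcl1* (-0.43), while *Mcl1* and *Pmaip1* had an r of 0.67. Among all 16932 genes, the closest to *Bcl2* were *Adcy6*, *Sulf1* and *Adamts1* (r = 0.95, 0.94 and 0.93), to *Mcl1* *Uchl1*, *Klf3* and *Skil* (0.94, 0.93 and 0.91), and to *Pmaip1* *Grhl3* and *Xk* (0.93 and 0.90). *Bcl2l1* was closest to *Krt20*, *Wnt10b* and *Dlk2* (each 0.97), and *Bbc3* to *Synpo*, *Map7d1* and *Lmtk3* (each 0.96). *Bak1* was closest to *Ywhag*, *Mfsd5* and *Src* (0.90, 0.90 and 0.88), *Bax* to *Atf5*, *Tarbp2* and *Edf1* (0.86, 0.86 and 0.85), *Bcl2l11* to *Hr*, *Denr* and *Ltb* (0.87, 0.87 and 0.86), and *Bad* to *BC029722*, *Col11a2* and *Sh3gl1* (0.88, 0.87 and 0.85). *Bid* had the loosest match, with *Mtus1* at 0.82.

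**Figure D5:**
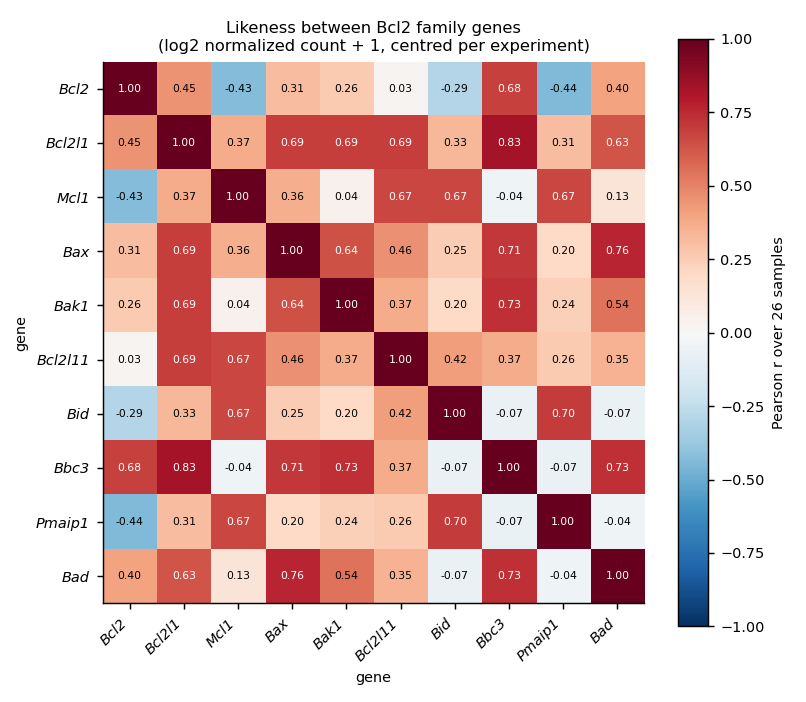
Pearson correlation between each pair of the 10 genes (both axes) over 26 samples, from log2 normalized counts centred within each experiment, with colour from -1 to 1. *Bcl2l1*, *Bax*, *Bak1*, *Bbc3* and *Bad* formed a block of higher values (0.54 to 0.83), and *Mcl1*, *Bid* and *Pmaip1* another (0.67 to 0.7). *Bcl2* with *Pmaip1* was the lowest pair, at -0.44.

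The rest of the route was followed through lists of other genes. Of 15 further Bcl2 family genes, 10 were tested. On day 3, *Tet3*m/m called 2 of them, the BH3-only gene *Hrk* (log2 1.24, SE 0.22, limma adjusted p 0.0045) and the survival gene *Bcl2l2* (-0.56, SE 0.13, 0.0154), and *Tet3*-/- called 0, where 13.9% and 0.681% of all genes passed. In the empty-vector samples, 7 passed in *Tet3*m/m (2 higher, 5 lower) and 5 in *Tet3*-/- (1 higher, 4 lower), where 45.6% and 53.2% of all genes passed. The same shares of all genes are the background of the lists that follow. In *Tet3*m/m the pore former relative *Bok* fell by 1.20 on the log2 scale (limma adjusted p 1.06e-08). *Bnip3*, a mitophagy receptor gene induced by hypoxia, fell in *Tet3*-/- (log2 -1.90, limma adjusted p 1.67e-13). The medians of these relatives were -0.11 and -0.10, against 0.01 and 0.00 over all genes, and in *Tet3*-/- the one that rose was the BH3-only gene *Bik* (0.83, limma adjusted p 0.000797). *Bnip3* fell further with Dnmt1 in *Tet3*-/- (-0.93, limma adjusted p 6.5e-07).

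Downstream, 21 genes of the apoptosome, the caspases and their inhibitors were tested. On day 3, 5 were lower and 0 higher in *Tet3*m/m, and 0 passed in *Tet3*-/-. The initiator *Casp2* (-1.39, SE 0.11, limma adjusted p 7.8e-05), *Cycs*, which encodes cytochrome c (-0.78, SE 0.098, 0.00071), and the protease gene *Htra2* (-1.11, SE 0.21, 0.00649) were among them, as was the channel gene *Vdac1* (-0.33), named after its value was seen. Many genes near the first 3 were also lower in *Tet3*m/m. *Casp2*, *Cycs* and *Htra2* are on chromosome 6, and the 50 tested genes nearest to each had medians of -0.88, -0.79 and -0.83. *Vdac1* is on chromosome 11, and the median for its 50 nearest genes was 0.01. In the empty-vector samples, 9 of the 21 passed in *Tet3*m/m, 4 higher and 5 lower, a share near the 45.6% of all genes. *Casp2* and *Htra2* were lower again (-1.42 and -1.02), and so was the channel gene *Vdac3* (-0.68), with medians of -0.81, -0.76 and -0.44 for the 50 genes nearest to each. *Vdac1*, lower on day 3, was higher here (0.18), with a median of 0.05 for its 50 nearest genes. The part of these chromosomal stretches in the falls was not tested. In the *Tet3*-/- samples of that experiment, 13 of the 21 passed, 8 higher and 5 lower, beside 53.2% of all genes, among them the DNase inhibitor gene *Dffa* (0.74, limma adjusted p 1.09e-08) and *Apaf1*, the scaffold of the apoptosome (0.49, 2.01e-07).

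Of the death receptor pathway, 8 of 11 genes were tested. In *Tet3*-/- with the empty vector, 6 were higher and 0 lower, where 26.7% of all genes passed as higher, with a median of 0.53 against 0.00 over all genes, and the receptor genes *Tnfrsf1a* (0.84, limma adjusted p 5.06e-09) and *Tnfrsf10b* (0.67, 7.26e-08) led them. In *Tet3*m/m, 2 were higher and 5 lower, beside 45.6% of all genes called, with a median of -0.34, including *Fas* (-1.79, SE 0.32, limma adjusted p 9.91e-05) and the adaptor gene *Tradd* (-0.76, 7.34e-06). On day 3, *Tradd* alone passed in the catalytic mutant (-0.51, limma adjusted p 0.0486), and the null cells had 0 genes past the threshold. Of 16 upstream regulators, 9 passed in *Tet3*m/m with the empty vector (7 higher, 2 lower) and 7 in *Tet3*-/- (4 higher, 3 lower), beside 45.6% and 53.2% of all genes. *Usp9x*, which encodes a deubiquitinase that stabilizes MCL1, rose in *Tet3*m/m (0.82, limma adjusted p 3.02e-11), *Myc* fell (-1.18, 1.37e-10), and *Mdm2*, the p53 target that restrains p53, rose in *Tet3*-/- (0.68, 8.51e-10). On day 3, *Fbxw7*, which encodes a ubiquitin ligase that marks MCL1 for destruction, rose in *Tet3*m/m (0.52, limma adjusted p 0.00807), with *Trp73* (1.87, 0.0295), and 0 passed in *Tet3*-/-.

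When Dnmt1 was added to *Tet3*-/- cells, the comparison in which *Pmaip1* rose, 7 of the 16 upstream regulators passed and all 7 were higher, where 13.4% of all genes passed and 7.46% passed as higher. *Mdm2* (0.49, SE 0.054, limma adjusted p 3.49e-06) and *Rb1* (0.51, SE 0.075, 9.42e-05) led them. With Dnmt1 in *Tet3*+/+, 2 of the 16 passed, both higher, beside 5.59% of all genes. In *Tet3*m/m 5 passed, 3 higher and 2 lower, beside 10.2%. Both sets held *Trp53* (0.24 and 0.37) and *Myc* (0.55 and 0.86), while *Pmaip1* was at -0.04 and 0.09 in these genotypes. *Myc* also rose in *Tet3*-/- (0.38). In *Tet3*-/-, 3 of the 21 genes of the apoptosome list passed, *Apaf1* higher (0.31, limma adjusted p 0.000587) and *Casp6* (-0.30, 0.0149) and *Casp2* (-0.31, 0.016) lower. Of the 8 death receptor genes tested 2 passed, *Tnfrsf10b* (0.28, limma adjusted p 0.00962) and *Fas* (1.08, 0.0313), both higher. *Bbc3* and *Bax* were at -0.07 and 0.12 (limma adjusted p 0.441 and 0.123), and *Bax* at 0.16 without the first Dnmt1 sample. Like *Pmaip1* and *Mdm2* they are known targets of p53, and the part of p53 in these values was not tested. The interaction between Dnmt1 and genotype passed for *Mdm2* (0.49, limma adjusted p 0.000229), *Rb1* (0.46, 0.00773) and *Fas* (1.53, 0.0379), in the direction of *Pmaip1*. Among the other apoptosis genes listed it passed for *Bok* (0.53, limma adjusted p 0.0366) in that direction, and for *Casp2* (-0.47, 0.0152) and *Bnip3* (-0.65, 0.00162) in the other. Of 8 housekeeping genes, 0 passed in any day 3 comparison, but 5 passed in *Tet3*m/m and 7 in *Tet3*-/- with the empty vector, beside 45.6% and 53.2% of all genes, the latter with 2 higher, 5 lower and a median of -0.40.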

How the data were processed

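RNA-seq libraries were trimmed with Trim Galore 0.6.7, aligned with STAR 2.7.9a and counted with featureCounts by the authors, who scaled the counts with DESeq2 and deposited the normalized counts per gene (unit: signal) in 1 table for each experiment. The processing notes name mm10 and the study's methods a later assembly. Each value divided by its sample's value of 1 read gave a whole number within 0.01 for 100% of genes, which recovered 31155842 to 50845950 reads per sample. Members rested on at least 450 reads a sample except *Bcl2*, with as few as 70 in the Dnmt1 experiment, where counting error limits its values. Differences were tested with limma 3.58.1 (R 4.3.3, trended variance) on log2(normalized count + 1) for genes with a mean of at least 10, all groups of an experiment in 1 fit, with Benjamini-Hochberg adjustment over all genes tested and a threshold of 0.05. The study's further fold threshold of 1.5, edgeR 4.0.16 and DESeq2 1.42.0 on recovered reads, and other pseudocounts, filters, scalings and sample sets were alternatives. On this log2 scale fold changes of low genes are understated, and members were all well above the pseudocount. Tables were normalized separately, and tests were made within a table. Tet3-CD samples had no replicates, and ratios past 1.5-fold were counted without a test. In 1 table, 2 empty-vector *Tet3*+/+ columns share a header and were used as replicates without numbers. Likeness was Pearson correlation over log2 values centred within each experiment, and the 3 genes closest to each called member (1 for *Bid*, which was never called) were chosen for naming. All members were reported, and of the other lists up to 4 called genes with the lowest adjusted p in each comparison. Some genes that these rules name are not reported here. Members and lists were chosen with earlier results of these data known. The fit was tested on simulated data.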

Additional observations from a re-analysis of the deposited data

Results flagged for a closer look

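For 2 genes the effect of Dnmt1 differed between *Tet3*-/- and *Tet3*+/+ by the limma test of the difference itself. For *Pmaip1*, the log2 effect was 0.66 in *Tet3*-/- and -0.04 in *Tet3*+/+, a difference of 0.70 (SE 0.10, limma adjusted p 0.000164), and both Dnmt1 samples of *Tet3*-/- lay above both empty-vector samples. For *Mcl1*, the effects were 0.20 and -0.10, a difference of 0.29 (SE 0.058, limma adjusted p 0.00236), with both samples higher in *Tet3*-/- and both lower in *Tet3*+/+. Both genes kept these calls whichever sample of the experiment was left out.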

How the results depend on the processing

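Across all settings, 28 of the 110 pairings of a member with a comparison changed sign under some setting, 3 of them under settings other than leaving out a sample. None of the 31 called values did, and the largest of the 28 was 0.22 on the log2 scale. Requiring a fold change above 1.5 left 0 members called for *Tet3*m/m against *Tet3*+/+ on day 3, where 1836 of 17915 genes remained. With the empty vector it left 2 for each mutant against *Tet3*+/+ and 4 between the mutants, beside 21.2%, 24.9% and 39.6% of all genes. For Dnmt1 in *Tet3*m/m and *Tet3*-/- it left 0 and 1, beside 444 and 638 of 18055 genes. For the interaction in *Tet3*-/- it left 1, beside 721 of these genes. On day 3, DESeq2 called 2, 1 and 4 members (*Tet3*m/m and *Tet3*-/- against *Tet3*+/+, then the mutants), against 1, 0 and 1 in limma, while calling 19.0%, 7.84% and 17.8% of all genes against 13.9%, 0.681% and 12.2%. A fit of only the groups compared called 1 for *Tet3*-/- against *Tet3*+/+, while calling 5.45% of all genes. Between the mutants, a pseudocount of 5, a mean of at least 50 and edgeR each called 2, while calling 12.6%, 14.5% and 11.6% of all genes. Leaving out 1 sample at a time gave 1 to 2, 0 to 1 and 0 to 2 members on day 3 in the same order. With the empty vector it gave 5 to 5, 7 to 9 and 8 to 9, and for Dnmt1 in *Tet3*+/+, *Tet3*m/m and *Tet3*-/- 0 to 0, 0 to 2 and 1 to 3, with 0 to 0 and 2 to 2 for the interactions. Such fits leave a Dnmt1 group with 1 sample, assumed to vary like the others. The difference of *Pmaip1* in *Tet3*m/m on day 3 ran from -0.46 to 0.07, and its response to Dnmt1 in *Tet3*+/+ from -0.09 to 0.02, with 0.01 without the second Dnmt1 sample. Samples of the same number did not deviate together (correlations of -0.098 to 0.082), but a weak pairing by number would not be seen in this way. The unnumbered empty-vector *Tet3*+/+ columns could not be checked. A replicate block was possible on day 3 and for comparisons of numbered groups in the Dnmt1 experiment. It left 1 member called for Dnmt1 in *Tet3*m/m (*Mcl1* at a limma adjusted p of 0.0521), where 8.32% of all genes passed. The causes were not tested. *Bcl2* had the lowest counts of the members, and its differences the widest intervals in the Dnmt1 experiment.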
